A study of Mus musculus with 6 samples.

Results

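The erythroid and heme synthesis genes are a set of 32 genes that red blood cells use to make and carry hemoglobin. They were listed by name for their known roles and fall into 4 globins, 7 enzymes of heme synthesis, 6 proteins of the red cell membrane, 9 regulators of red cell formation, and 6 genes for a globin chaperone, iron uptake and red cell enzymes. Of the 32, 31 were measured among 18193 genes in all, each through 1 probe set, the brightest on average of those annotated to no other gene. Ahsp, which encodes the alpha-globin chaperone, was not analysed here. The study profiled whole E13.5 mouse kidneys (E, embryonic day) on Affymetrix MOE430.2 arrays, 3 of each genotype. The double-null kidneys were Fz4-/-Fz8-/- (arrays M1, M2 and M3) and the Fz8-null kidneys were Fz4+/+Fz8-/- (arrays C1, C2 and C3), so that every kidney lacked Fz8 and the genotypes differed in Fz4. Fz4 and Fz8 are Frizzled receptors for Wnt signals, and the comparison asks what loss of Fz4 changes where Fz8 is already missing. All embryos were of a hybrid background (129S1/Sv, 129X1/SvJ and C57BL/6), no agent was given, and the labels do not say how many embryos an array holds or how the alleles were made.

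The first red cells of the mouse embryo form in the yolk sac and carry embryonic globins, and from midgestation the fetal liver supplies definitive red cells that carry adult globins. The embryonic kidney is not a known site of red cell formation, and red cells reach it through its vessels. Heme is built by a chain of enzymes that begins and ends in the mitochondrion, and the factors Gata1 and Klf1 switch on globin, heme and membrane genes through GATA and CACCC motifs in their control regions.

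Promoters are shown for members of each role to make these motifs visible. RefSeq sequences (GRCm38.p6) matched 23 of the 32 genes with 28 promoter windows, of which the 250 bases before each annotated start were searched. The GATA motif was taken as any of 4 hexamers (AGATAA, or AGATAG, or else TGATAA, or finally TGATAG), and the second motif as CACCC, each on both strands. Hits could overlap by rule, and no GATA hit overlapped a CACCC hit in these 28 windows. Capitals mark the hits in the sequences below, which read 5′ to 3′ along the gene. The windows lie at chr7:103853208-103853457 on the minus strand for Hbb-y, chr11:32276350-32276599 on the plus strand for Hba-x, chrX:150547167-150547416 on the plus strand for Alas2, chr4:119189996-119190245 on the minus strand for Ermap, chr17:40810899-40811148 on the plus strand for Rhag, chr8:84901732-84901981 on the plus strand for Klf1 and chr16:32608646-32608895 on the plus strand for Tfrc.
Hbb-y: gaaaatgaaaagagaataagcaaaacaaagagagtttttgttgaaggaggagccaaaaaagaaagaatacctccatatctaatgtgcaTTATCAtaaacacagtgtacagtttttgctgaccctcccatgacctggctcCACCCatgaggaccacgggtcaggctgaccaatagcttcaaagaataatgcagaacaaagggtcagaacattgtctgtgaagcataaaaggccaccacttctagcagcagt
Hba-x: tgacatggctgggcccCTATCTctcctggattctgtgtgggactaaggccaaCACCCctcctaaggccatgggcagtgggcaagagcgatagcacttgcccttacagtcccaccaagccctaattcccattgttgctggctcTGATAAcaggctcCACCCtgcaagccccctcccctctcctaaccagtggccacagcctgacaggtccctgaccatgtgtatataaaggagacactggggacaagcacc
Alas2: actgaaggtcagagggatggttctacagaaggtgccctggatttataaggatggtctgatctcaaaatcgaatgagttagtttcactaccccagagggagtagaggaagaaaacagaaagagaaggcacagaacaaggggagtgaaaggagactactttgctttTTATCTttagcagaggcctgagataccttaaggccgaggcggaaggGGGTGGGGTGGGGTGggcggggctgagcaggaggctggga
Ermap: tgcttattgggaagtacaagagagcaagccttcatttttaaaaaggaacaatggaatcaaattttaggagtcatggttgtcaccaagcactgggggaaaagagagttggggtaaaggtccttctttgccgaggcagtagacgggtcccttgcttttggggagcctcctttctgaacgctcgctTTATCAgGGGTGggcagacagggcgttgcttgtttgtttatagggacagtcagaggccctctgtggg
Rhag: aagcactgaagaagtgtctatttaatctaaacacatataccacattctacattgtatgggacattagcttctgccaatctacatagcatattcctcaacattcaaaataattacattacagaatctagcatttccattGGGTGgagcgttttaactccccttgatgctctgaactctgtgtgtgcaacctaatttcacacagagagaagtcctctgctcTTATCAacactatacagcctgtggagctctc
Klf1: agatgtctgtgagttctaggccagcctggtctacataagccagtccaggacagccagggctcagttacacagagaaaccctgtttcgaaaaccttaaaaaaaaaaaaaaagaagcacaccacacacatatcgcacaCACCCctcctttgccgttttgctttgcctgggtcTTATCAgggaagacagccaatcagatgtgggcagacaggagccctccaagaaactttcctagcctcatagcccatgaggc
Tfrc: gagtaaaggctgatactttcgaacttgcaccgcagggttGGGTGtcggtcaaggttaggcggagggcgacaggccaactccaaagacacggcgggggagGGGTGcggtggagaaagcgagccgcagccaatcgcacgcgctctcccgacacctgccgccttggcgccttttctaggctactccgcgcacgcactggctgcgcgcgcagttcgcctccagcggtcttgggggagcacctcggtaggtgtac

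A GATA hexamer was present in 16 of the 28 member windows (57.1%) and in 26.5% of all 32851 windows in the table. CACCC stood in 19 of 28 (67.9%) and in 52% of all windows, and both motifs together in 13 of 28 (46.4%) and in 11.8% of all windows. In Klf1 the GATA hit began 80 bases before the start, in Alas2 86 bases, in Ermap 67 bases and in Rhag 31 bases. The RefSeq gene of Rhag begins at chr17:40811099, inside the printed window, so that this Rhag hit lies before the promoter's start but within the gene. The Tfrc window printed above held CACCC but no GATA hexamer, and the single windows of Ppox and Urod, both heme enzyme genes active in most cells, held neither. These matches describe letters in the reference sequence and say nothing about binding.

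The deposited values are log2 probe-set levels normalized with RMA, with array medians from 6.02 to 6.14. Fzd4, the gene that separates the genotypes, read 5.29, 4.96 and 3.89 on M1, M2 and M3, against 10.74, 10.86 and 10.93 on C1, C2 and C3 (limma adjusted p = 0.00318), in keeping with the labels of all 6 arrays. Fzd8, missing from every kidney, read 3.57, 3.60 and 3.90 on M1, M2 and M3, against 3.58, 4.42 and 3.93 on C1, C2 and C3. Where these probe sets lie relative to the altered parts of the alleles is not given in the sources used here. Kidney genes were present in every array: the mean level of 11 measured kidney markers lay between 8.53 and 8.86 in double-null and between 9.24 and 9.27 in Fz8-null kidneys. M1 differed from M2 and M3 for the red cell genes, so the main results below are given by array. Where a member is given by its difference alone, that value averages over M1, M2 and M3 and can hide a split between them. A difference is the double-null mean less the Fz8-null mean in log2 units. Errors after ± are SDs over 3 arrays, SE is limma's moderated standard error, and adjusted p is Benjamini-Hochberg over all genes with a threshold of 0.05.

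Red cell genes stood higher in 2 double-null arrays and at or below the Fz8-null level in the third. On M2 and M3 alike, 25 of 31 members (80.6%) lay above every Fz8-null array, a pattern shown by 10.3% of all genes. On M1, 17 of 31 (54.8%) lay below every Fz8-null array, against 42% of all genes, and Rhag, Hemgn and Lmo2 lay above (9.68%, against 27.3% of all genes). The median member was 0.19 below the Fz8-null mean on M1, 1.16 above it on M2 and 1.29 above it on M3, where the median of all genes lay at -0.077, -0.11 and 0.0077. In whole kidney, a different number of red cells and a different amount of RNA per red cell cannot be told apart.

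Over all 6 arrays 29 of 31 members had a positive difference (93.5%, against 41.9% of all genes), with a median of 0.70 against -0.061 for all genes. With limma's array weights, which gave M1 the largest weight, 18 of these differences turned negative. None passed limma's test (0 of 31, where 0.0275% of all genes passed), and the smallest adjusted p of a member was 0.314. At an unadjusted limma p under 0.05 stood 3 of 31, or 9.68%, a share below the 15.3% of all genes. The genotypes did not overlap for 3 members on the higher side, where 6.68% of all genes did so, and for 0 members on the lower side, where 12.2% did. The spread among double-null arrays was wide: the median SD of a member was 0.97 in double-null and 0.18 in Fz8-null kidneys, against 0.24 and 0.16 for all genes. The double-null SD was the larger for 28 of 31 members and for 69.8% of all genes.

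**Figure D1:**
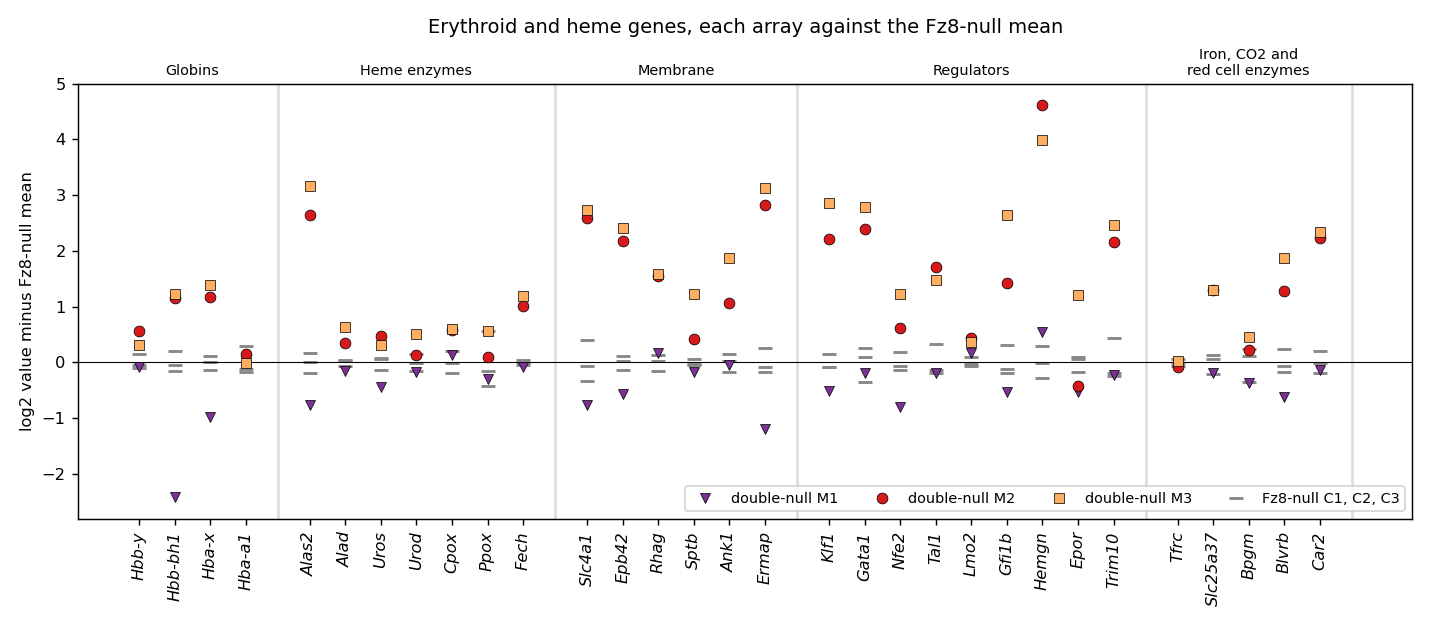
Each member on each array, as the log2 value minus the mean of the 3 Fz8-null arrays (y axis), with genes grouped by role along the x axis. Symbols mark the double-null arrays M1, M2 and M3, and grey dashes the Fz8-null arrays. Circles and squares (M2 and M3) lie above the dashes for most genes, up to 4.62 for Hemgn, while triangles (M1) lie near or below them, down to -2.40 for Hbb-bh1.

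Among globins, the embryonic genes Hbb-bh1 and Hba-x differed most between double-null arrays. Hbb-bh1, an embryonic beta-type globin of yolk sac red cells, read 7.68, 11.25 and 11.32 on M1, M2 and M3, against 9.93, 10.29 and 10.04 on C1, C2 and C3. M1 was thus 5.29-fold below the Fz8-null mean, while M2 was 2.24-fold and M3 2.35-fold above it. The genotype means were almost equal, at 10.08 ± 2.08 in double-null and 10.09 ± 0.19 in Fz8-null kidneys (SD, n = 3 each), with a difference of -0.0040 (SE 0.92, limma adjusted p = 0.998). Both further Hbb-bh1 probe sets showed the split, with 7.63 and 7.56 on M1, 11.03 and 11.08 on M2 and 10.95 and 10.85 on M3, and Fz8-null values from 9.84 to 10.19.

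Hba-x, the embryonic zeta globin that pairs with these beta chains, followed the same order with a smaller drop. It read 10.55, 12.71 and 12.91 on M1, M2 and M3, against 11.65, 11.54 and 11.40 on C1, C2 and C3, a difference of 0.53 (SE 0.59, limma adjusted p = 0.649). M1 lay 1.97-fold below the Fz8-null mean, M2 2.27-fold above and M3 2.61-fold above. Hbb-y, the other embryonic beta-type globin, varied least of the 3, with 12.96, 13.60 and 13.36 on M1, M2 and M3 and 13.19, 12.94 and 12.99 on C1, C2 and C3 (difference 0.27, SE 0.19, limma adjusted p = 0.483). These readings lie close to the highest values on the arrays (14.12 to 14.21), where probe sets can saturate, which was not tested here. A less bright Hbb-y probe set gave 12.11 on M1, 13.38 on M2 and 13.17 on M3, against 12.81, 12.78 and 12.79 on C1, C2 and C3, so that M1 was the lowest array there, at -0.69 relative to the Fz8-null mean.

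On probe sets of a single gene, adult globins did not share the low reading of M1 to that extent. Probe sets shared by several adult globin genes, given under Other observations, read differently. Most of them put M1 below every Fz8-null array, by less than for Hbb-bh1 or Hba-x, and all put M2 and M3 above. Hba-a1, an adult alpha globin gene, has 1 probe set of its own, which read 2.85, 2.97 and 2.82 on M1, M2 and M3 and 3.12, 2.64 and 2.71 on C1, C2 and C3, below the value of 4 that was taken as near background. It therefore says nothing on alpha globin transcript, and the difference was 0.056 (SE 0.16, limma adjusted p = 0.871). Hba-a2, its near-identical copy and not a member, read 11.35, 11.64 and 11.72 in double-null and 11.39, 11.53 and 11.57 in Fz8-null kidneys. Hbb-b2, an adult beta globin gene outside the list, lay higher in all 3 double-null arrays: 11.92, 12.55 and 12.36 on M1, M2 and M3, against 11.68, 11.64 and 11.75 on C1, C2 and C3 (difference 0.59, SE 0.18, limma adjusted p = 0.314). Relative to the Fz8-null mean, M1 thus stood at 0.23 for Hbb-b2 and at -2.40 for Hbb-bh1. Globin genes of one cluster resemble each other, and how far these probe sets pick up each other's transcripts was not tested.

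**Figure D2:**
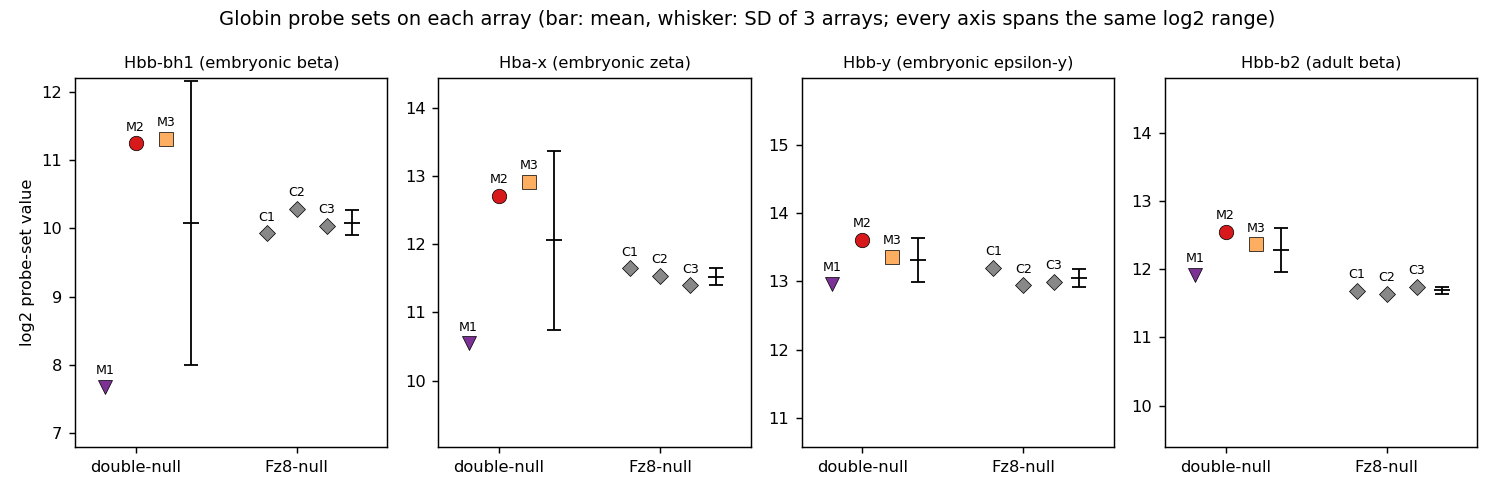
Log2 value (y axis) of a globin probe set on each double-null array (M1, M2, M3, left) and Fz8-null array (C1, C2, C3, right) in each panel, with the mean and SD of 3 arrays beside each group. M1 is the lowest array for Hbb-bh1 (7.68) and Hba-x (10.55), and lies above every Fz8-null array for Hbb-b2 (11.92).

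Among the 7 heme enzymes, differences on the probe sets used were largest at the first and last steps. All 7 were positive, from 0.12 to 1.68 with a median of 0.28, and 0 passed. Alas2, the erythroid form of the enzyme that commits glycine to heme, read 6.56, 9.96 and 10.48 on M1, M2 and M3, against 7.33, 7.48 and 7.13 on C1, C2 and C3 (difference 1.68, SE 0.95, limma adjusted p = 0.394). M2 was 6.27-fold and M3 8.97-fold above the Fz8-null mean, and M1 was 1.69-fold below it. Fech, ferrochelatase, which inserts iron into protoporphyrin, read 9.76, 10.86 and 11.03 in double-null and 9.84, 9.88 and 9.80 in Fz8-null kidneys (difference 0.70, SE 0.32, limma adjusted p = 0.338). Here M1 was level with the Fz8-null arrays, and M2 and M3 lay 2.02-fold and 2.27-fold above them. Other Fech probe sets gave differences of 0.54, 0.25 and, near background, -0.21.

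Cpox, coproporphyrinogen oxidase, was the heme enzyme with the smallest p: 8.07, 8.52 and 8.54 on M1, M2 and M3, against 7.92, 7.74 and 8.15 on C1, C2 and C3 (difference 0.44, SE 0.19, limma adjusted p = 0.327). Only C3 exceeded M1, and on a dimmer Cpox probe set all 3 double-null arrays (5.91, 6.61 and 6.32) lay above all 3 Fz8-null arrays (5.54, 5.26 and 5.28). The difference there was 0.92, larger than that of Fech, so the order of the steps depends on the probe set. The enzymes of the middle steps, which all cells use for their own heme, differed little. Alad, porphobilinogen synthase, stood at 0.28, Uros, uroporphyrinogen III synthase, at 0.12, Urod, uroporphyrinogen decarboxylase, at 0.16 and Ppox, protoporphyrinogen oxidase, at 0.12. On the probe sets used, none of these 4 moved by more than 0.64 on M2 or M3, while a dimmer Alad probe set stood at 1.00 on M3.

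Membrane genes followed one order across the double-null arrays. All 6 had positive differences, from 0.50 to 1.59 with a median of 1.22, all 6 lay above every Fz8-null array on both M2 and M3, and 4 lay below every Fz8-null array on M1. Ermap, a membrane protein of the immunoglobulin family that carries the Scianna blood group in humans, differed most: 5.17, 9.17 and 9.47 on M1, M2 and M3, against 6.26, 6.61 and 6.18 on C1, C2 and C3 (difference 1.59, SE 1.07, limma adjusted p = 0.460). It was 7.05-fold above the Fz8-null mean on M2, 8.72-fold above on M3 and 2.27-fold below on M1. Epb42, protein 4.2, which ties the anion exchanger to the skeleton, read 3.83, 6.58 and 6.82 on M1, M2 and M3 and 4.27, 4.44 and 4.51 on C1, C2 and C3 (difference 1.34, SE 0.74, limma adjusted p = 0.388).

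Rhag, the Rh-associated glycoprotein, was a membrane gene whose genotypes did not overlap, though narrowly. It read 3.01, 4.39 and 4.43 on M1, M2 and M3, against 2.69, 2.98 and 2.88 on C1, C2 and C3 (difference 1.09, SE 0.38, limma adjusted p = 0.314), with all Fz8-null arrays and M1 near background. Ank1, the ankyrin that links spectrin to the membrane, read 5.19, 6.31 and 7.11 on M1, M2 and M3, against 5.27, 5.38 and 5.06 on C1, C2 and C3 (difference 0.96, SE 0.45, limma adjusted p = 0.339). Its other 3 probe sets gave differences from 0.010 to 0.35. Slc4a1, the band 3 anion exchanger, stood at 1.52, and Sptb, the erythroid beta spectrin, at 0.50. Slc4a1 was 6.02-fold above the Fz8-null mean on M2, 6.66-fold above on M3 and 1.7-fold below on M1, and its second bright probe set gave the same difference of 1.52.

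Of the regulators, Hemgn differed most and the receptor Epor did not follow the rest. All 9 had positive differences, from 0.083 to 3.06 with a median of 1.18, and 0 passed. Hemgn, hemogen, a nuclear protein of blood progenitors and erythroblasts, read 4.61, 8.68 and 8.05 on M1, M2 and M3, against 4.05, 4.35 and 3.77 on C1, C2 and C3. M1 was 1.47-fold above the Fz8-null mean, M2 24.6-fold and M3 16.0-fold, and the genotypes did not overlap (difference 3.06, SE 0.98, limma adjusted p = 0.314). The Fz8-null readings lay about the near-background value of 4, so these folds are not exact and may understate the change, and the gap between M1 and C2 is one between dim readings. Gata1, the master factor of the red cell lineage, read 5.05, 7.64 and 8.02 on M1, M2 and M3, against 5.49, 5.33 and 4.89 on C1, C2 and C3 (difference 1.67, SE 0.73, limma adjusted p = 0.331). M1 fell within the Fz8-null range, and M2 and M3 lay 5.29-fold and 6.91-fold above the Fz8-null mean.

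Lmo2, a bridging protein of the Gata1 and Tal1 complex that endothelium also expresses, was the third member without overlap. It read 9.77, 10.05 and 9.98 on M1, M2 and M3, against 9.54, 9.71 and 9.57 on C1, C2 and C3 (difference 0.33, SE 0.13, limma adjusted p = 0.325), a small shift that all double-null arrays shared. Klf1, the factor that activates adult beta globin, stood at 1.52, and its readings were 1.42-fold below the Fz8-null mean on M1, 4.63-fold above on M2 and 7.25-fold above on M3. Trim10, a tripartite motif protein of erythroid differentiation, stood at 1.47, and Gfi1b, a repressor of red cell and platelet lineages, at 1.18. Tal1, the bHLH partner of Lmo2, stood at 1.00 and Nfe2, the NF-E2 subunit, at 0.35. Relative to the Fz8-null mean, Nfe2 stood at -0.80 on M1, 0.62 on M2 and 1.23 on M3. Epor, the erythropoietin receptor, stood at 0.083: it was 1.45-fold below the Fz8-null mean on M1, and M2 lay at -0.43 and M3 at 1.21 on the log2 scale. It was the only regulator below every Fz8-null array on M2.

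The remaining genes spanned the flattest and some of the steepest members. Car2, carbonic anhydrase 2, which red cells and several epithelia use for carbon dioxide transport, read 9.07, 11.44 and 11.53 on M1, M2 and M3, against 9.0, 9.41 and 9.19 on C1, C2 and C3 (difference 1.48, SE 0.63, limma adjusted p = 0.328). It stood 4.71-fold and 5.03-fold above the Fz8-null mean on M2 and M3 and within the Fz8-null range on M1. Slc25a37, mitoferrin 1, which brings iron into the mitochondrion for Fech, read 8.99, 10.47 and 10.46 in double-null and 8.96, 9.31 and 9.24 in Fz8-null kidneys (difference 0.80, SE 0.40, limma adjusted p = 0.355). Blvrb, a flavin and biliverdin reductase abundant in red cells, read 7.55, 9.45 and 10.05 on M1, M2 and M3, against 7.99, 8.42 and 8.10 on C1, C2 and C3 (difference 0.85, SE 0.59, limma adjusted p = 0.474).

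Tfrc, the transferrin receptor by which dividing cells of all kinds take up iron, was flat on its brightest probe set. Its double-null mean was 11.57 ± 0.056 and its Fz8-null mean 11.60 ± 0.068 (SD, n = 3 each), a difference of -0.036 (SE 0.12, limma adjusted p = 0.889). Dimmer Tfrc probe sets gave differences of -0.085 and 0.47. The latter stood at 0.66 on M1, 0.79 on M2 and -0.048 on M3 relative to the Fz8-null mean. Bpgm, bisphosphoglycerate mutase, which sets the oxygen affinity of hemoglobin, stood at 0.10, and its 2 other probe sets gave 0.016 and 0.20. These averages hide a split between arrays. Relative to the Fz8-null mean, the Bpgm probe set at 0.016 stood at -1.16 on M1, 0.22 on M2 and 0.99 on M3. The one at 0.20 stood at -0.74 on M1, 0.45 on M2 and 0.90 on M3. Over the 5 genes the median difference was 0.80. Within each double-null array, members thus ranged widely, from -0.43 to 4.62 on M2 and from -0.0077 to 4.0 on M3. M3 exceeded M2 for 24 of 31 members, among them Gfi1b (7.04 on M3, 5.82 on M2) and Epor (6.94 on M3, 5.30 on M2), and M2 exceeded M3 for 7, among them Hemgn and Tal1.

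How far the genotype comparison rests on M1 was seen by leaving out each array in turn. M1 was known to read low for these members, so a fit without it favours higher calls. Its adjusted p values describe the split between arrays and are no separate test of the genotypes. Without M1, with 2 double-null arrays against 3 Fz8-null arrays, 9 of 31 members were called higher and 0 lower by limma, where 0.192% of all genes were called higher and 0.022% lower. The 9 were Hemgn (difference 4.31, SE 0.27, adjusted p = 0.0128), Ermap (2.97, SE 0.20, adjusted p = 0.0143), Alas2 (2.91, SE 0.22, adjusted p = 0.0189), Slc4a1, Gata1, Klf1, Epb42, Car2 and Rhag. Differences of the last 6 ranged from 1.56 for Rhag to 2.66 for Slc4a1. Without M1, Hbb-bh1 stood at 1.20 (adjusted p = 0.106) and Hba-x at 1.28 (adjusted p = 0.0783), short of the threshold. Of the 35 genes called higher in that fit, 9 were members, 7 were liver markers and 1 was Pklr, the pyruvate kinase of liver and red cells. The other 18 stood on no list, and Ambp, Fabp1, Hpx, Itih2, Serpina1b and Vtn among them are also genes of liver. Leaving out M2, M3, C1, C2 or C3 called 0 of 31 members, while the share of all genes called was 0.022% without M2, 18.1% without M3, 0.0165% without C1, 0.0165% without C2 and 0.011% without C3.

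**Figure D3:**
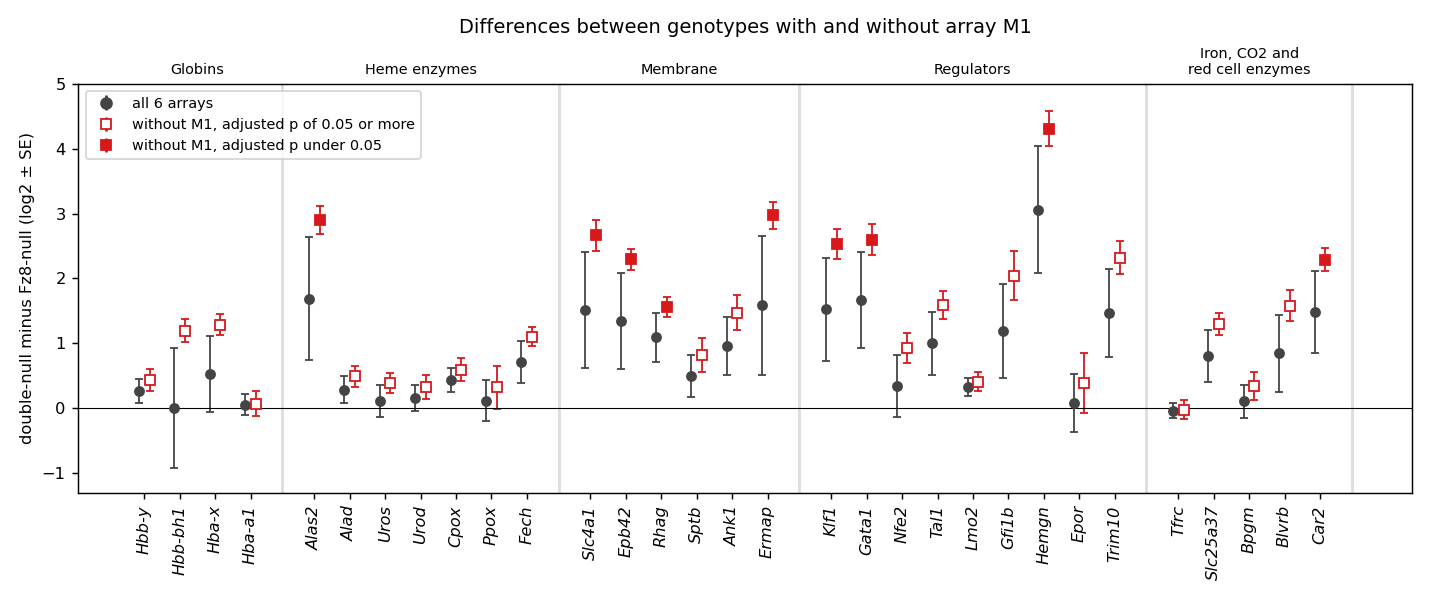
Difference between double-null and Fz8-null kidneys (y axis, log2, with limma's SE as bars) for each member, over all 6 arrays (circles) and without M1 (squares, filled where the adjusted p was under 0.05). Filled squares mark 9 genes, from Rhag at 1.56 to Hemgn at 4.31, and no gene shown passed over all 6 arrays. The fit without M1 leaves out the array on which members were known to read low, so filled squares are no separate test of the genotypes.

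Further genes of the pathway were taken from lists of non-members, of which 0 genes passed over all arrays in either direction. Among 21 measured genes of heme and iron handling, the median difference was -0.067, 10 were positive and 11 negative. The 3 of smallest limma p were Mfn2, a mitochondrial fusion protein that may stand in this list by mistake for mitoferrin 2, at -0.92, Flvcr1, a heme and choline transporter, at -0.59, and Steap3, an iron reductase of erythroblasts, at 0.61 (adjusted p = 0.314 for each). Of 21 further membrane genes the median was 0.060, and those of smallest p, Tspan8 at 2.06, Slc2a4 at -0.39 and Cd36 at 0.66 (adjusted p = 0.314 to 0.315), are not confined to red cells. Kel and Rhd, which carry the Kell and Rh blood groups, read like Ermap: Kel was 4.17, 7.60 and 8.62 on M1, M2 and M3, against 5.45, 5.54 and 5.05 on C1, C2 and C3, and Rhd was 4.75, 7.63 and 8.56 on M1, M2 and M3, against 5.41, 5.68 and 5.28 on C1, C2 and C3. Both were singled out after their values were seen.

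Further regulators were split in direction. Of 34 measured, 14 were positive and 20 negative with a median of -0.063, and the smallest limma p belonged to Kit, the stem cell factor receptor, at -0.92, Ldb1, the scaffold of the Gata1 complex, at -0.53, and Nfe2l1 at -0.53 (adjusted p = 0.314 to 0.319). Kit read 6.19, 6.55 and 7.12 on M1, M2 and M3, against 7.30, 7.63 and 7.69 on C1, C2 and C3, so it was lower in double-null kidneys on every array. All 9 further red cell enzyme genes were positive, with a median of 0.13. Car1, carbonic anhydrase 1, stood at 0.37 near background, Pklr at 1.99 and Gpx1, glutathione peroxidase 1, at 0.62 (limma adjusted p = 0.314 to 0.317). Pklr read 6.41, 8.54 and 8.99 on M1, M2 and M3, against 5.67, 6.40 and 5.89 on C1, C2 and C3.

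Markers of other cells were read beside the red cell genes, and their part in the red cell result was not tested. Liver markers were high on M2 and M3, where red cell genes were high, and to a lesser extent on M1, where they were not. All 11 measured of 13 listed had positive differences, and their mean level was 6.50, 8.75 and 9.11 on M1, M2 and M3, against 5.46 to 5.98 in Fz8-null kidneys. On M1 the median liver marker stood 0.64 above the Fz8-null mean, and 8 of 11 (72.7%, against 27.3% of all genes) lay above every Fz8-null array there, while the median red cell member stood at -0.19. Hnf4a, among those 8, was highest on M1, at 1.61, against 0.34 on M2 and 1.06 on M3. For every other measured liver marker M1 was the lowest of the double-null arrays, so Hnf4a did not vary with the rest of its list. The liver markers of smallest p were Fga at 2.54 and Afp, alpha-fetoprotein, at 3.22 (limma adjusted p = 0.313 for Fga and 0.314 for Afp). None of the liver markers was near background in both genotypes.

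Other blood cells showed smaller shifts. The mean level of 13 macrophage and leukocyte markers was 6.45, 7.34 and 7.24 on M1, M2 and M3, against 6.57 to 6.78 in Fz8-null kidneys, with 10 of 13 positive. Of these, C1qb stood at 1.27 and Lyz2 at 1.36 (limma adjusted p = 0.314 and 0.353), and Itgam was near background in both genotypes. The mean of 7 megakaryocyte and platelet markers of 9 listed was 5.67, 5.90 and 6.11 on M1, M2 and M3, against 5.90 to 6.07 in Fz8-null kidneys, and 3 of 7 were positive. Ppbp stood at -1.04 and Gp1bb at 0.49 (limma adjusted p = 0.314 for both). For 4 measured mast cell and basophil markers of 5 listed, the mean was 4.28, 4.51 and 4.69 in double-null and 3.78 to 3.96 in Fz8-null kidneys, with Ms4a2 at 1.01, Mcpt8 at 0.52 (limma adjusted p = 0.314 and 0.421) and Fcer1a near background in both genotypes.

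Endothelium, which lines the vessels that hold the blood, varied between the double-null arrays. Of 12 markers 3 were positive and 9 negative, where 41.9% of all genes were positive, and their mean was 8.02, 7.69 and 8.41 on M1, M2 and M3, against 8.29 to 8.53 in Fz8-null kidneys. The median endothelial marker stood at -0.43 on M1, -0.92 on M2 and 0.051 on M3, so that it was low on M2 and near the Fz8-null mean on M3, both arrays with high red cell genes. Kdr stood at -0.80 and Esam at -0.61 (limma adjusted p = 0.314 for both). All 11 measured kidney markers of 12 listed were negative, with medians of -0.53 on M1, -0.44 on M2 and -0.32 on M3, among them Gdnf at -0.73 and Osr1 at -1.26 (limma adjusted p = 0.314 for both). Kidney markers were thus low on all 3 double-null arrays, and red cell genes high on M2 and M3.

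**Figure D4:**
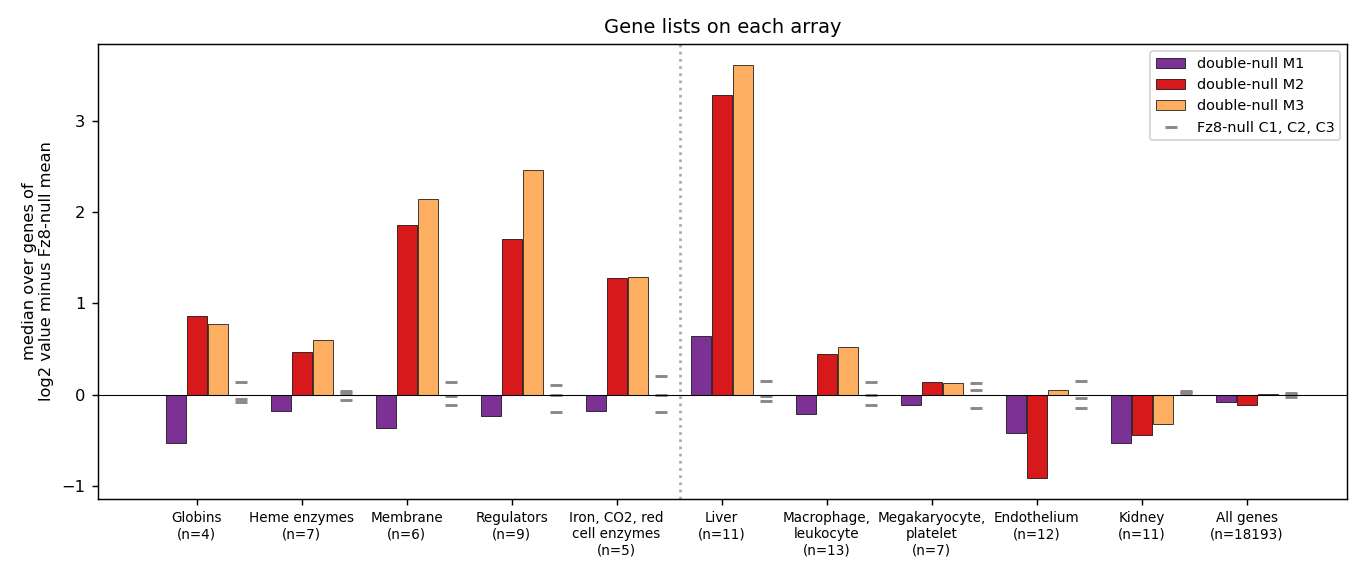
Median over the genes of a list of the log2 value minus the Fz8-null mean (y axis), for double-null arrays M1, M2 and M3 (bars) and Fz8-null arrays (grey dashes), with red cell lists left of the dotted line and marker lists and all genes right of it. The regulator and membrane medians reach 2.47 and 2.14 on M3, the liver median 3.62, and the 5 red cell lists lie below 0 on M1, where the liver list stands at 0.64.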

How the data were processed

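Whole embryonic mouse kidneys of 2 genotypes, 3 arrays each, were measured from 100 ng of total RNA. The deposited table holds log2 probe-set values, and the authors made it with RMA, per the submitters' processing notes (version not given in the sources used here). The values were used as deposited. Of 45101 probe sets, 64 controls were set aside, and of the other 45037 the platform annotation gave 1 gene for 34945, several for 932 and none for 9160. Gene and promoter names came from that annotation and RefSeq (GRCm38.p6). The genotypes were compared by limma 3.58.1 (R 4.3.3, lmFit and eBayes without trend, two-sided), fitted over 18193 genes and tested on simulated data. The simulation gave both genotypes the Fz8-null spread, so it does not cover the wider double-null spread of the members. The series' design text calls the arrays biological replicates. Their number limits the precision, and arrays carry no read depth.

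The members and lists were chosen with earlier results of these data known. Values on every array are given for the globins and, in each other role, for the 3 members of smallest p and the one of largest difference. Of the further pathway lists the 3 genes of smallest p are named, of marker lists 2. Alternatives were a minimum mean of 6, quantile normalization, equal medians, trend and robust eBayes, array weights, a replicate block, the mean of a gene's probe sets and leaving out each array.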

Additional observations from a re-analysis of the deposited data

How the results depend on the processing

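None of the 31 members passed with a minimum mean of 6, quantile normalization, equal medians, trend and robust eBayes, the replicate block or the mean of all probe sets. Array weights, which gave M1 a weight of 3.93 and M3 0.21, called 1 member (Hbb-bh1, at -1.95, limma adjusted p = 0.0434) among 7576 genes. They moved the medians to -0.062 for heme enzymes, -0.12 for membrane genes, -0.017 for regulators and -0.043 for the iron and red cell enzyme genes. Weighted in this way, the double-null mean lies close to M1, since M2 was given only 0.48. Why M1 received the largest weight was not tested. With these weights 18 members turned negative: Hba-x (-0.62), Alas2 (-0.26), Alad (-0.062), Uros (-0.35), Urod (-0.074), Ppox (-0.044), Slc4a1 (-0.43), Epb42 (-0.19), Sptb (-0.044), Ermap (-0.65), Klf1 (-0.018), Nfe2 (-0.64), Gfi1b (-0.28), Epor (-0.43), Trim10 (-0.017), Slc25a37 (-0.043), Bpgm (-0.41) and Blvrb (-0.40). Signs of small differences also changed with quantile normalization (Hbb-bh1 0.10, Hba-a1 -0.069), equal medians (Hbb-bh1 0.051, Tfrc 0.020) and the mean of all probe sets (Uros -0.025, Ppox -0.093, Tfrc 0.12). The members without overlap numbered 1 with the minimum mean, where dim genes are left out, and 5 with the mean of all probe sets. Genes called over the whole table, 5 as reported, were 3 with the replicate block and 1 with the mean of all probe sets.

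Leaving out single arrays gave 2 to 3292 genes called, 0 to 9 members called (9 without M1), 3 to 25 members without overlap, and globin medians from 0.063 to 0.82 (0.82 without M1). Signs changed within these ranges for 8 members: Hbb-bh1 (-0.62 to 1.20), Hba-a1 (-0.033 to 0.20), Uros (-0.060 to 0.39), Urod (-0.018 to 0.33), Ppox (-0.10 to 0.40), Nfe2 (-0.091 to 0.92), Epor (-0.48 to 0.39) and Bpgm (-0.070 to 0.34). The other 23 kept their sign. Pairing by replicate number was not seen: across genes, residual correlations were 0.17 between M1 and C1, -0.14 between M2 and C2 and 0.090 between M3 and C3. Pairs of unlike number ran from -0.23 to 0.25, so with 3 arrays a genotype these values cannot exclude pairing. The replicate block turned no member's sign, and in this balanced design it could not. Probe sets below about 4, such as Hba-a1 and Rhag, carry little signal over background.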

Other observations

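Of the 18 genes outside all lists that were called higher without M1, those below were singled out after their values were seen. They do not stand for the 18. Ambp, Fabp1, Itih2, Serpina1b and Vtn, genes of liver, were called as well, with differences without M1 from 2.15 for Vtn to 3.62 for Serpina1b. Redrum, a long noncoding RNA of erythroid cells, read 5.31, 6.37 and 5.83 on M1, M2 and M3, against 4.22, 3.95 and 4.06 on C1, C2 and C3, so that it was higher on all 3 double-null arrays, M1 included (difference 1.76, SE 0.27, limma adjusted p = 0.177 over all 6 arrays). Tent5c, a poly(A) polymerase, split as the globins did, with 6.93, 10.20 and 10.29 on M1, M2 and M3, against 7.87, 8.28 and 8.21 on C1, C2 and C3. Hpx, the plasma protein hemopexin that binds free heme and is made by liver, read 3.24, 5.0 and 5.03 on M1, M2 and M3, against 3.63, 3.63 and 3.58 on C1, C2 and C3. The metallothionein genes Mt1 and Mt2, whose products bind zinc and copper, lay higher on all 3 double-null arrays, with 8.55, 10.77 and 11.01 for Mt1, against 8.44, 7.80 and 7.64 on C1, C2 and C3.

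Probe sets annotated to several globin genes were left out of the comparison. Those shared by the adult alpha genes read higher on M2 and M3: the first gave 9.78, 12.02 and 11.77 on M1, M2 and M3, against 10.52, 9.91 and 9.80 on C1, C2 and C3, the second gave 11.85, 13.18 and 13.06 on M1, M2 and M3, against 12.27, 11.89 and 11.77 on C1, C2 and C3, and the third gave 12.65, 14.04 and 14.12 on M1, M2 and M3, against 13.36, 13.18 and 12.79 on C1, C2 and C3. A probe set shared by the adult beta genes gave 13.07, 13.78 and 13.77 on M1, M2 and M3, against 13.22, 13.22 and 13.18 on C1, C2 and C3.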
